A study of Mus musculus with 16 samples.

Results

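Isolated regions are accessible regions of mouse embryonic stem (ES) cells that lie more than 50 kb from the nearest accessible region on each side. They were selected on their gaps alone, the distance from the end of the region before and to the start of the region after on the same autosome, with the first and last region of each chromosome left out. Of 79240 autosomal regions with a neighbour on each side, 4141 were isolated, which is 5.23% (95% Wilson interval 5.07 to 5.38%). The whole list held 81132 regions, of which 38 were first or last on an autosome and 1854 lay on X or Y. The other 75099 autosomal regions served for comparison, 15969 of them with a gap over 50 kb on 1 side and 59130 on neither side.

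The regions came from ATAC-seq, in which the Tn5 transposase cuts accessible DNA. The cells were SBROS, a single clone made from CGR8 mouse ES cells. Its parent line, SBR, reports SOX1 with eGFP and Brachyury with mCherry. The cells carry a SNAP-tag on both alleles of endogenous SOX2 and a HALO-tag on 1 allele of OCT4. They grew in medium with serum, LIF, the GSK3 inhibitor CHIR99021 (3 µM) and the MEK inhibitor PD184352 (0.8 µM), and were sorted in G1 phase by the level of both proteins. Cells high in SOX2 were split into those high (SHOH) and low (SHOL) in OCT4, and cells low in SOX2 likewise (SLOH and SLOL), with 3 libraries of each and 12 in all. The list pools these libraries and holds no value per library, so the depth behind each region is unknown, no error between replicates exists and the 4 populations were not compared. All intervals below are 95% intervals that cover counting error only, and regions are not replicates of each other.

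Accessible regions of ES cells are mostly promoters, enhancers bound by factors such as OCT4, SOX2, KLF4 and ESRRB, and sites of CTCF, which shapes the loops of the chromosome. They gather around active genes, while long gene-poor stretches rich in repeats carry few of them. Some repeats bring regulatory sequence of their own: the promoters of mouse LINE-1 elements are built of tandem units, and YY1 is known to bind at LINE-1 promoters.

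The isolated regions farthest from any neighbour are shown first, because the gap defines the set. Of the members at most 300 bp wide, these are the 3 with the largest smaller gap, and the closest genes are the pseudogenes Gm7696 and Gm21129 and the protein-coding gene Gm3500. All sequences are from GRCm38 (mm10), read 5′ to 3′ on the plus strand, and the capitals of each set mark the motifs named beside it, on either strand. The first holds the ESRRB motif TCAAGGTCA, the second the SOX motif in the form ACAAAGG, and the last holds none of the 15 motifs searched and is soft-masked as repeat over its whole length (100%).
Gm7696, chr7:8359603-8359755, plus strand: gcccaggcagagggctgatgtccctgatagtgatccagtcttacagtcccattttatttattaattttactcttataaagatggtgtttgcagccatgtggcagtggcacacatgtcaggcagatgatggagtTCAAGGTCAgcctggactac
Gm21129, chr7:38837241-38837441, plus strand: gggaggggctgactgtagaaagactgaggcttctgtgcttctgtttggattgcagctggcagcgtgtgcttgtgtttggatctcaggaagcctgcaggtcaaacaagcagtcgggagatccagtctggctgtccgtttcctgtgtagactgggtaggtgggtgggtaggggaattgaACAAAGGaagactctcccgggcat
Gm3500, chr14:5369068-5369257, plus strand: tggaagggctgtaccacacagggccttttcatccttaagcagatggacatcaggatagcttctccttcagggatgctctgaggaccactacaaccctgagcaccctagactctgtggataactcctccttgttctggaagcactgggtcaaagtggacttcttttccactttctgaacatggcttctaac

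Promoter members are shown next, because 10.7% of the set were promoters. These are the promoter members of protein-coding genes with the largest smaller gap among those at most 300 bp wide. Magi2 encodes a scaffold protein of synapses, and its smaller gap was 207.5 kb. Capitals mark a TEAD motif (GGAATGT, here on the minus strand) in the Magi2 region and an NFY motif (AGCCAAT, also on the minus strand) in the Gm11232 region. The Gm2956 region had 71.8% G or C bases and a stretch of 31 bases in common with regions elsewhere in the list (11 regions in all).
Magi2, chr5:19907328-19907593, plus strand: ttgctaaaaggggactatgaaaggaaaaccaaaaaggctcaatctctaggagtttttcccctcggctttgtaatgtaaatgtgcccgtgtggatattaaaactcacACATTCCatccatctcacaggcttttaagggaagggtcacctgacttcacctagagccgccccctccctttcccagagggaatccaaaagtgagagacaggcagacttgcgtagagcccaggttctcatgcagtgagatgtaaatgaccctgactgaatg
Gm2956, chr14:3332327-3332500, plus strand: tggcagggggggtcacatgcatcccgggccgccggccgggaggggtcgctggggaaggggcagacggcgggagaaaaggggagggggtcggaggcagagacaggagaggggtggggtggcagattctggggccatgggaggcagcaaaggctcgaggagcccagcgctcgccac
Gm11232, chr4:71757924-71758089, plus strand: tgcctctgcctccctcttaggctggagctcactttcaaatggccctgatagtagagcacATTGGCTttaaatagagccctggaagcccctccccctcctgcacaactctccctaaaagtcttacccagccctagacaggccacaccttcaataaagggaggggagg

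Members with the CTCF core are shown because it was present in 5.43% of members and in 0.121% of stretches of the same width 5 kb away. Those printed are not the ones with the largest smaller gap, which are named below. Capitals mark the core, which lies in a sequence of 39.6 to 52.3% G or C bases. The Gm25258 region also holds the octamer ATGCAAAT, left in lower case here. The first of them, 199.8 kb from its closer neighbour, has no repeat-masked base.
Gm35024, chr9:79045471-79045639, plus strand: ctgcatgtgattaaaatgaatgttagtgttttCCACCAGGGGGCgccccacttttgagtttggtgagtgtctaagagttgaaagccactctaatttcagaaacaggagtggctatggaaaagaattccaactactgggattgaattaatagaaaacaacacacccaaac
A930001M01Rik, chr15:86585808-86586044, plus strand: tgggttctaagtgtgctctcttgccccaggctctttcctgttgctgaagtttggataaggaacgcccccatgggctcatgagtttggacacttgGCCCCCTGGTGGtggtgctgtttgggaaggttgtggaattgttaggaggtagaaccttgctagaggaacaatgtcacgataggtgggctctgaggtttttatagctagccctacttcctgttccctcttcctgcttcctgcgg
Gm25258, chr2:133793430-133793709, plus strand: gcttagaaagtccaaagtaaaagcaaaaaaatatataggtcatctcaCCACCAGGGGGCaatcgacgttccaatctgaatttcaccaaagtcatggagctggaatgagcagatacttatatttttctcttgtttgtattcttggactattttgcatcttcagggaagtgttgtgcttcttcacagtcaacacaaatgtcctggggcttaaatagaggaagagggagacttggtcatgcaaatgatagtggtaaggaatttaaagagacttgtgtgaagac

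A member with the octamer, the letters that OCT4 is known to read, is shown because the libraries were sorted on OCT4. Capitals mark the octamer. The smaller gap of this region was 259.6 kb, and it is poor in G and C (33.0%).
Gm45490, chr8:30409487-30409665, plus strand: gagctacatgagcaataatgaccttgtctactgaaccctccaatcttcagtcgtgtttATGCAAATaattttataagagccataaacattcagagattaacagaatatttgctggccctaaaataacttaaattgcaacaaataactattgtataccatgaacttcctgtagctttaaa

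The last sequence stands for the members with a stretch common to many regions, and it was chosen after its values were seen. It is the member near Gm5554, 371.4 kb from its closer neighbour, masked as repeat over its whole length, with 65.2% G or C bases. Capitals mark the YY1 motif AAGATGGCG, which occurs in it at 2 places. The region had a stretch of 31 bases in common with others of the list (616 regions in all).
Gm5554, chr5:42738562-42738840, plus strand: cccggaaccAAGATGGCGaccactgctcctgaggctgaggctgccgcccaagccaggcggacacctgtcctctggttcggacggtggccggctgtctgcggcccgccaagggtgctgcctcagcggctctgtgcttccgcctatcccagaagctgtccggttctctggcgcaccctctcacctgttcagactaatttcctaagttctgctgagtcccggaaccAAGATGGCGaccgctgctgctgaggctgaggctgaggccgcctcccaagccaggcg

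The gaps chose the members, so their sizes are a description of the choice. The smaller gap ranged from 50001 to 1005153 bp with a median of 77471 bp and quartiles of 60198 and 110874 bp. The larger gap had a median of 149949 bp and reached 2312928 bp. Just inside the limit were chr11:7423392-7424300 and chr11:7474302-7474754, which are each other's neighbours (50001 bp), chr2:147083547-147084665 in an exon near Nkx2-4 (50006 bp) and chr15:68127675-68128004 in an intron near Zfat (50009 bp). Just outside were the Zfp318 promoter at chr17:46383306-46383767 (49967 bp), chr6:48136998-48137231 near Gm16630 (49970 bp), chr4:59273456-59273606 near Gm12596 (49984 bp) and chr3:7217223-7217410 near Gm8823 (49985 bp). Promoters made up 14.1% of the 679 regions with a smaller gap of 45 to 50 kb and 14.3% of the 565 regions at 50 to 55 kb, while regions made mostly of repeats made up 21.9 and 28.7%. The YY1 motif was present in 6.48% of the regions just outside the limit and 5.49% of those just inside, and the CTCF core in 6.77 and 5.31%.

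**Figure D1:**
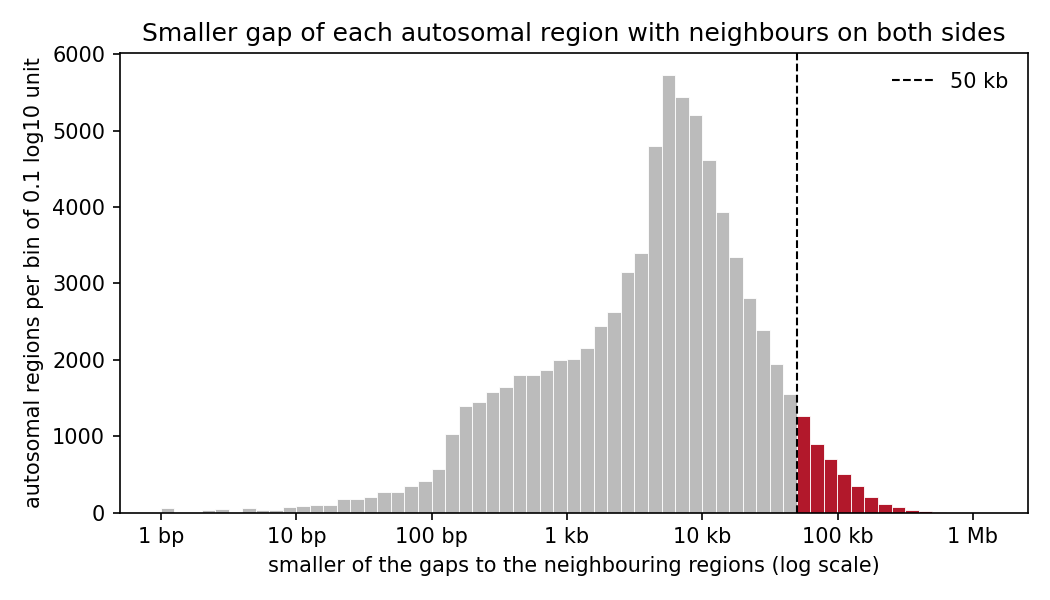
Number of autosomal regions (vertical axis) by the smaller of their gaps to the neighbouring regions (horizontal axis, log scale), for the 79240 regions with a neighbour on each side. The dashed line is 50 kb, and the bars to its right hold the 4141 isolated regions.

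Isolated regions lay outside genes more often than the rest. Of the 4141, 2315 (55.9%, 54.4 to 57.4%) had an intergenic centre, against 33.9% of the other autosomal regions (interval of the difference 20.4 to 23.5 percentage points), with the same direction on 19 of 19 autosomes. Promoters, reaching 1000 bp upstream and 100 bp downstream of start sites, made up 444 (10.7%, 9.82 to 11.7%) against 21.4%, a difference of -10.7 points (-11.6 to -9.65). Introns made up 29.1% against 35.6%, and exons 4.25% against 9.04%. The shares of regions with 1 side over 50 kb lay between those of isolated regions and of regions with neither side, as the plot of place and content shows. Few genes started near the members: 69.8% had no protein-coding start site within 50 kb, against 21.3% of the others, and 34.2% had no start site of any gene within 50 kb, against 7.58%. The median distance to the closest protein-coding start site was 126119 bp (118649 to 134092) for members and 10961 bp for the others. An accessible promoter within 50 kb of a member, other than its own, is left out by the rule, so these distances follow in part from the choice.

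**Figure D2:**
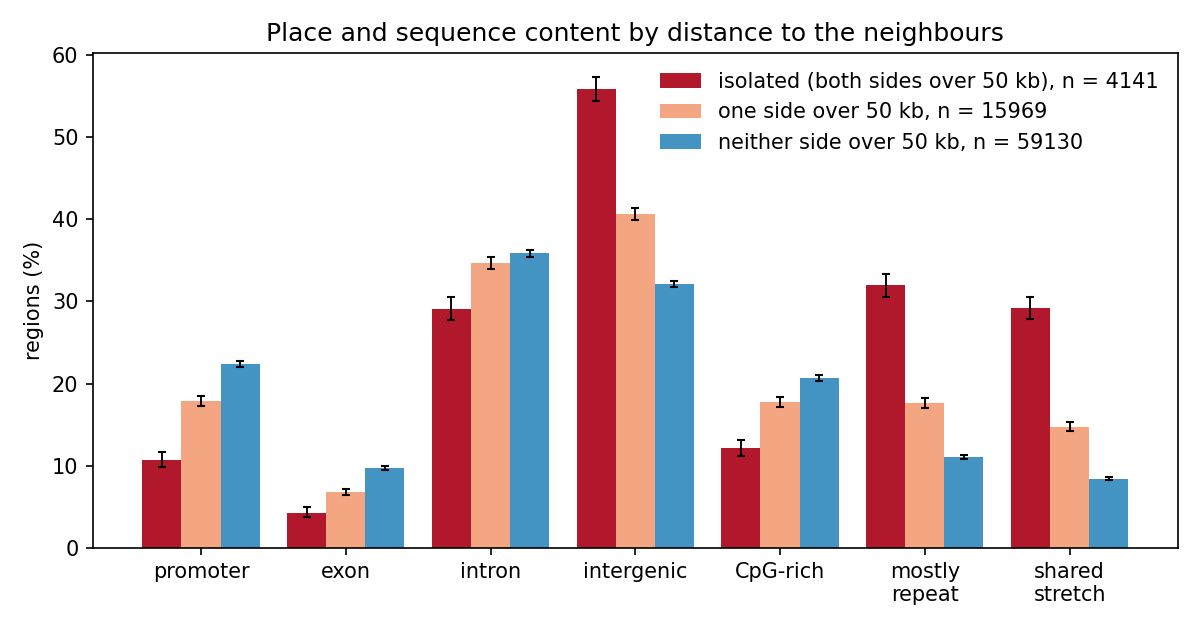
Share of regions (%) in each place and with each kind of sequence, for isolated regions (red), regions with a gap over 50 kb on 1 side (orange) and on neither side (blue), with 95% Wilson intervals. Intergenic, mostly repeat and shared-stretch regions fall from red to blue, while promoter, exon, intron and CpG-rich regions rise.

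Isolated regions were richer in repeats. More than 50% of the bases were soft-masked in 1323 members (31.9%, 30.5 to 33.4%), against 12.4% (12.2 to 12.7%) of the other autosomal regions, a difference of 19.5 points seen on 19 of 19 autosomes. The median masked share was 18.4% in members and 8.80% in the others. The surroundings were richer in repeats too: the 50 kb on each side of a member had a median of 35.8% masked bases, against 28.5% around the others. The course along the region differed as well. In the other regions the masked share dipped from 27.9% beyond 1500 bp from the centre to 18.6% within 50 bp of it, whereas in the members it was 36.9% and 35.9%. These are means over members mostly repeat and not mostly repeat together. The course was not split by repeat content, so it need not be that of a typical member. Both sets had a peak of G and C bases at the centre: members went from 40.2 to 50.8% and the others from 45.1 to 53.7%.

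**Figure D3:**
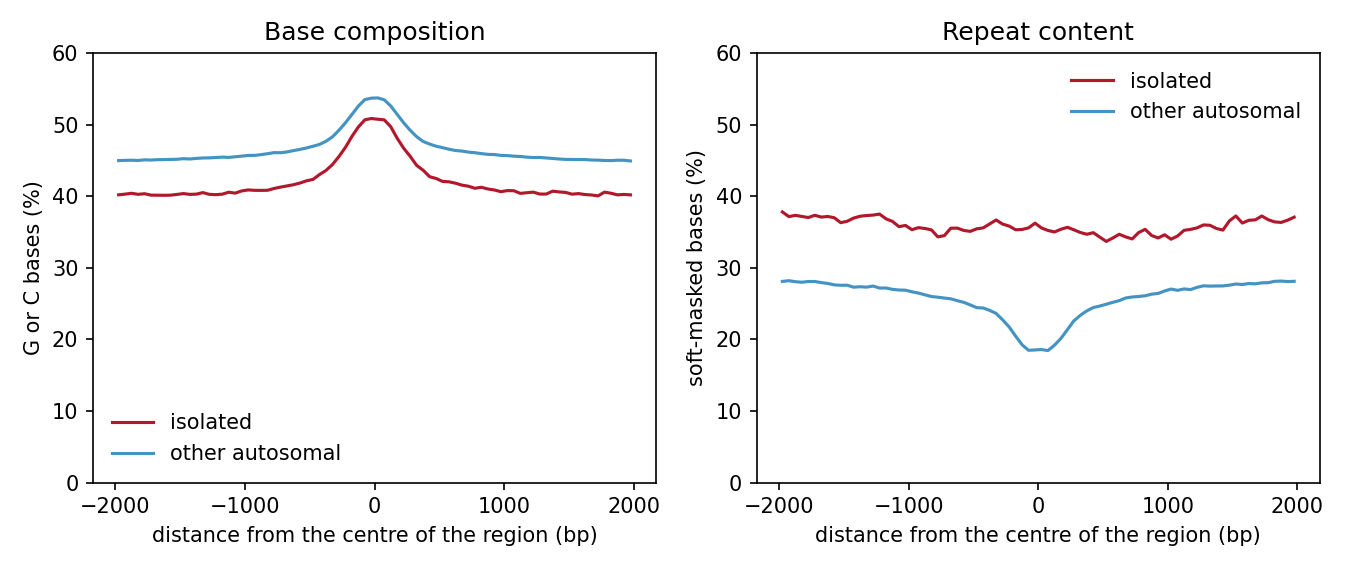
Mean share of G or C bases (left, %) and of soft-masked bases (right, %) by distance from the centre of the region (bp, bins of 50 bp), for isolated regions (red) and other autosomal regions (blue). The blue line on the right dips to 18.6% at the centre and the red line does not.

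Many members had sequence in common. A stretch of 31 bases in common with regions elsewhere, 10 or more regions in all, was present in 1209 members (29.2%), against 14.7% of regions with 1 side over 50 kb and 8.40% of regions with neither. Counted among the members alone, 819 (19.8%) had a stretch that 10 or more members held. The members with a widely shared stretch had a median of 51.6% G or C bases, 74.6% of them were intergenic and 23.7% held the YY1 motif. In regions with 1 side over 50 kb and such a stretch these values were 49.3, 65.3 and 17.3%, and in all other autosomal ones 48.8, 55.7 and 9.72%. This search was added after the data were seen.

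Single stretches were then followed through the genome, starting with the one that most members held and going on with those that most further members held. The first was present in 172 members on all 19 autosomes and in 612 regions of the list, while its letters occurred 5134 times in the autosomes, with 925 copies (interval of the share 17.0 to 19.1%) inside a region. Of these members, 126 were intergenic and 43 intronic. The most frequent distance from a copy to the next was 212 bp, found 2689 times, so the letters recur in tandem. The YY1 motif was present in 136 of these members (79.1%) and the SOX motif in 75 (43.6%). The second stretch was held by 111 members, of which 79 (71.2%) had the YY1 motif and 7 (6.31%) the SOX motif, and its copies most often followed each other at 214 bp. The third was held by 79 members, none of them with the YY1 motif, and its copies most often followed each other at 208 bp (2024 times). Of its 4891 copies 335 (6.85%) lay inside a region. The next was rarer in the genome: 36 members held it, and 110 of its 184 copies (59.8%, 52.6 to 66.6%) were inside a region of the list. The 6 stretches followed were present in 453 members (10.9%). They were picked as those held by the most members, so the shares of copies inside a region follow in part from the choice. The share of the autosomes that the list covers was not set beside them. Repeat families were not analysed here. The list rests on uniquely mapped reads, and their part in the result was not tested.

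Of the 15 motifs searched, the YY1 motif had the largest ratio between members and other regions. It was present in 323 members (7.80%, 7.02 to 8.66%) and in 1575 of the 75099 other autosomal regions, a difference of 5.70 points (4.92 to 6.57) seen on 19 of 19 autosomes. Regions with 1 side over 50 kb lay between, at 3.66%, against 1.67% with neither. By chromosome, the share ranged from 5.29 to 11.1% in members and from 1.56 to 2.52% in the others, and the ranges did not overlap. The central 200 bp held it in 5.02% against 1.23%. In stretches of the same width 5 kb away from the members it was 0.217%. Most of these members were repeats: 270 of the 323 (83.6%) were mostly masked, 286 (88.5%) held a stretch common to 10 or more regions, and 227 were intergenic. Their median share of G and C bases was 59.9% and their median width 463 bp. Among members made mostly of repeats 20.4% held the motif, against 7.24% of other regions made mostly of repeats. Among members not mostly repeat the share was 1.88%, against 1.37% (difference 0.514 points, 0.064 to 1.09), and with promoters left out as well it was 1.63% against 0.662% (difference 0.973 points, 0.530 to 1.57). YY1 is a zinc finger factor that binds many promoters, yet of the promoter members only 15 (3.38%) held its motif, against 3.60% of other promoter regions.

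**Figure D4:**
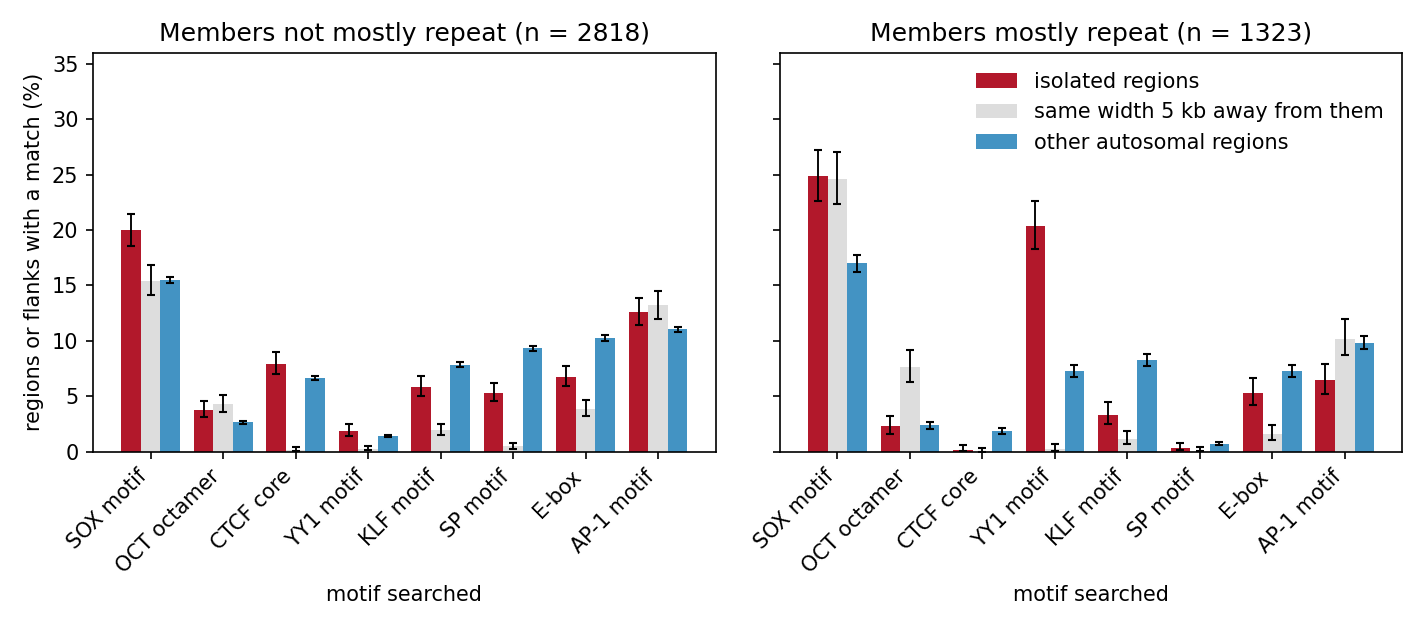
Share (%) of isolated regions (red), of stretches of the same width 5 kb away from them (grey) and of other autosomal regions (blue) with at least 1 match to each motif, with 95% Wilson intervals, for regions not mostly repeat (left) and mostly repeat (right). The YY1 bar stands out on the right at 20.4%, and the CTCF bar of the members on the left is 7.91% against 0.177% in the flanks.

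The core motif of CTCF, which marks many loop anchors, differed from the other regions in a direction that depended on the regions compared. The core was present in 225 members (5.43%, 4.78 to 6.17%) and in 6.02% of the other regions, a difference of -0.585 points (-1.26 to 0.166), lower on 14 of 19 autosomes. Only 2 of these members were mostly repeat. Without regions made mostly of repeats the share was 7.91% in members and 6.61% in the others, so the difference turned to 1.31 points (0.346 to 2.38), higher on 16 of 19 autosomes. With promoters left out as well the interval included 0, at 0.977 points (-0.121 to 2.20). Among intergenic regions the core was less frequent in members (4.97 against 7.51%, difference -2.55 points, -3.42 to -1.53), lower on 18 of 19 autosomes. With a limit of 25 kb in place of 50 kb the difference over all members was also positive, at 0.522 points (0.025 to 1.05). In the flanks of members the core was present in 0.121%. The matches lay near the middle: 178 of 225 members (79.1%) had one within 100 bp of the centre, against 78.3% in the others, and the median distance was 49 bp (38 to 57), against 55 bp in the others.

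The motifs of the factors on which the cells were sorted were more frequent in members than in other regions, but also frequent in the DNA around them. The SOX motif (ACAAAGG or ACAATGG) was present in 892 members (21.5%, 20.3 to 22.8%) and in 15.7% of the others, a difference of 5.87 points (4.62 to 7.18) seen on 19 of 19 autosomes. In the central 200 bp it was 13.4% against 8.71%. The flanks of the members had it in 18.4%, or in 14.8 and 15.5% when taken 2 and 20 kb away. Among members not mostly repeat, 20.0% held it against 15.4% of their own flanks and 15.5% of the other regions, while those mostly repeat had it in 24.9% and their flanks in 24.6%. The octamer was present in 136 members (3.28%, 2.78 to 3.87%) and in 2.61% of the others, a difference of 0.678 points (0.164 to 1.28), higher on 12 of 19 autosomes. It was no more frequent in members than in their flanks, which had it in 5.36% at 5 kb, 3.70% at 2 kb and 3.62% at 20 kb. Members not mostly repeat held the octamer in 3.76%, against 4.29% of their flanks at 5 kb. For members mostly repeat these shares were 2.27 and 7.63%. A match is a description of letters and does not show that a factor was bound.

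Several motifs of promoters and of other ES cell factors were less frequent in members than in other autosomal regions, but more frequent than in the members' own flanks. The KLF motif (GGGTGTGG) was present in 5.05% against 7.91%, the SP motif (GGGGCGGGG) in 3.72% against 8.26%, the E-box (CACGTG) in 6.30% against 9.88% and the ETS motif (CCGGAAGT) in 1.21% against 2.58%. The ESRRB motif was present in 1.74% against 2.27% (difference -0.532 points, -0.904 to -0.074). In stretches of the same width 5 kb away from the members, the KLF motif was present in 1.67% and the ESRRB motif in 0.652%. The SP motif was present there in 0.338%, the E-box in 3.14% and the ETS motif in 0.097%. In the 2386 members that were neither promoters nor mostly repeat, the KLF motif (5.66 against 7.77%) and the E-box (4.90 against 8.28%) were still less frequent, and the octamer (4.02 against 2.78%) and the SOX motif (20.6 against 16.0%) more frequent. For the ESRRB motif the interval of the difference included 0 in this subset (2.18 against 2.44%, -0.790 to 0.423). The AP-1 motif (TGANTCA) was present in 10.6% against 10.9%, a difference of -0.273 points (-1.20 to 0.727). In the subset without promoters and repeats it was more frequent in members (13.0 against 11.5%, difference 1.54 points, 0.215 to 2.98). It was no more frequent in members than in their own flanks (10.6 against 12.2%, or 12.6 against 13.2% for members not mostly repeat).

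Members were poorer in G and C bases and, at the limit of 50 kb, slightly narrower. The median width was 342 bp (333 to 351), against 355 bp (353 to 357) in the other autosomal regions, and members were narrower on 13 of 19 autosomes. With a limit of 25 kb the median was 358 bp (351 to 364), no longer below that of the other regions here. The median share of G and C bases was 48.7% (48.4 to 49.1%) against 52.0%, lower on 19 of 19 autosomes. CpG-rich regions, with at least 50% G or C bases and an observed over expected CpG ratio of at least 0.6, made up 502 members (12.1%, 11.2 to 13.2%) against 20.0%. The order was the reverse among regions made mostly of repeats, where members were wider (354 against 282 bp), richer in G and C (51.2 against 48.2%) and more often CpG-rich (9.45 against 3.46%).

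The 444 promoter members were like other promoters in composition and wider than them. Their median width was 788 bp (735 to 829), against 596 bp (589 to 602) in other promoter regions, and 28.4% were wider than 1000 bp, against 13.0%. The median share of G and C bases was 60.8% against 60.7%, and 59.0% were CpG-rich against 61.1%. The CRE motif (TGACGTCA), which CREB and ATF factors read, was present in 6.31% against 3.38% (difference 2.93 points, 1.00 to 5.60). In the central 200 bp, where width is equal, the shares were 2.03 and 1.61% and the interval of the difference included 0 (-0.558 to 2.21). Protein-coding genes accounted for 347 (78.2%, against 85.3% of other promoters), lincRNA genes for 41 and processed pseudogenes for 31.

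The 8 promoters of protein-coding genes with the largest smaller gap are given in the order of that gap. Spock3, which encodes a secreted proteoglycan, stood 521.7 kb from its closer neighbour (chr8:62951099-62952031, 933 bp). Ptprd, a receptor tyrosine phosphatase of synapses, stood 394.1 kb away (chr4:78211415-78212364, 950 bp), with an SP motif and 65.1% G or C bases. Next were Gm14305 (365.2 kb, with 350000 unsequenced bases in its gaps), the adaptor gene Dok6 on chromosome 18 (334.0 kb) and the cadherin gene Cdh7 (252.1 kb). They were followed by the follistatin-like gene Fstl4 (246.8 kb), the potassium channel subunit gene Kcnab1 (226.7 kb) and the dynein heavy chain gene Dnah7c (223.9 kb). All 8 of these regions were 586 to 1343 bp wide and none was mostly repeat, while 4 were CpG-rich. The widest member was a promoter too, that of Tent5a, a poly(A) polymerase gene (2579 bp, with the octamer, the CTCF core and the KLF motif). Other wide members were a region at the start sites of Gm9987 and Sh3rf3 (2031 bp) and an intronic, mostly repeat region near 2700054A10Rik (2108 bp).

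The members with the largest smaller gap of all lay largely on chromosome 7. The farthest was chr7:21076186-21076880, 1005.2 kb and 2085.5 kb from its neighbours among vomeronasal receptor genes, with Vmn1r-ps74 as the closest gene, 63.5% G or C bases, every base masked and the YY1 motif. The next was the Gm7696 region printed above (870.2 kb), whose closest protein-coding gene was the vomeronasal receptor gene Vmn2r44. The third, chr7:61083047-61083527 near Gm38451, and the eighth, chr7:60488291-60488502 near Gm3198, were neighbours with 594.5 kb between them. Snrpn, an imprinted gene, was the closest protein-coding gene of both, but lay 943.1 and 348.2 kb away, in that order. The Gm21129 region had 554.8 kb. On chromosome 5, chr5:47287190-47287836 near Gm43601 had 543.8 kb, held the SOX and YY1 motifs and was 92.4% masked, with the axon guidance gene Slit2 695.6 kb away. The Spock3 promoter and the Gm3500 region (511.3 kb) complete these 8, of which 3 were mostly repeat. Unsequenced bases (N) lay in the gaps of the first, second and Gm21129 regions, and in a gap of 53 of all members (1.28%).

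Of the members with a CTCF core, those with the largest smaller gap were near AC116841.1 (304.6 kb), Gm49292 (286.5 kb), Gm42768 (260.0 kb) and AC161438.1 (259.6 kb), none of them mostly repeat. With the octamer, those described here are the Gm45490 region printed above and an intronic region near 4930520P13Rik (241.8 kb, chr13:70233876-70234849).

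Runs of isolated regions are also a description of the choice, since the neighbour of a member has a gap over 50 kb on 1 side by the rule. Of the 4141, 2721 (65.7%, 64.2 to 67.1%) had another isolated region as a neighbour, and 618 (14.9%) belonged to runs of 5 or more. The longest runs had 10 members. One, chr1:146920004-148379061, held 10 intergenic regions near Brinp3, which is expressed in neurons, and the phospholipase gene Pla2g4a, and 4 of them were mostly repeat. Another, chr3:41862697-44430430, held 10 intergenic regions near D3Ertd751e and the protocadherin gene Pcdh10, 6 of them mostly repeat. The last, chr12:21767877-24498933, was of another kind: 7 of its 10 regions were promoters, none was mostly repeat, their median share of G and C bases was 69.7%, and all 10 had a stretch of 31 bases in common with at least 1 other region. In the other runs named here that count was 5 and 6 of 10.

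Within the members, content changed further with distance. From a smaller gap of 50 to 75 kb (1950 members) over 75 to 100 kb (902) and 100 to 200 kb (1058) to over 200 kb (231), the intergenic share was 50.6, 55.3, 63.3 and 68.8%. The share made mostly of repeats was 28.1, 31.8, 36.6 and 43.7%, and that with the YY1 motif 6.41, 7.54, 9.92 and 10.8%. Promoters went from 12.7 over 10.5 and 7.66 to 8.66%, and the CTCF core from 5.69 over 5.88 and 5.39 to 1.73%, the last from 4 of 231 members (0.675 to 4.37%). The SOX motif had no such course, at 21.5, 21.1, 22.1 and 21.2%.

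**Figure D5:**
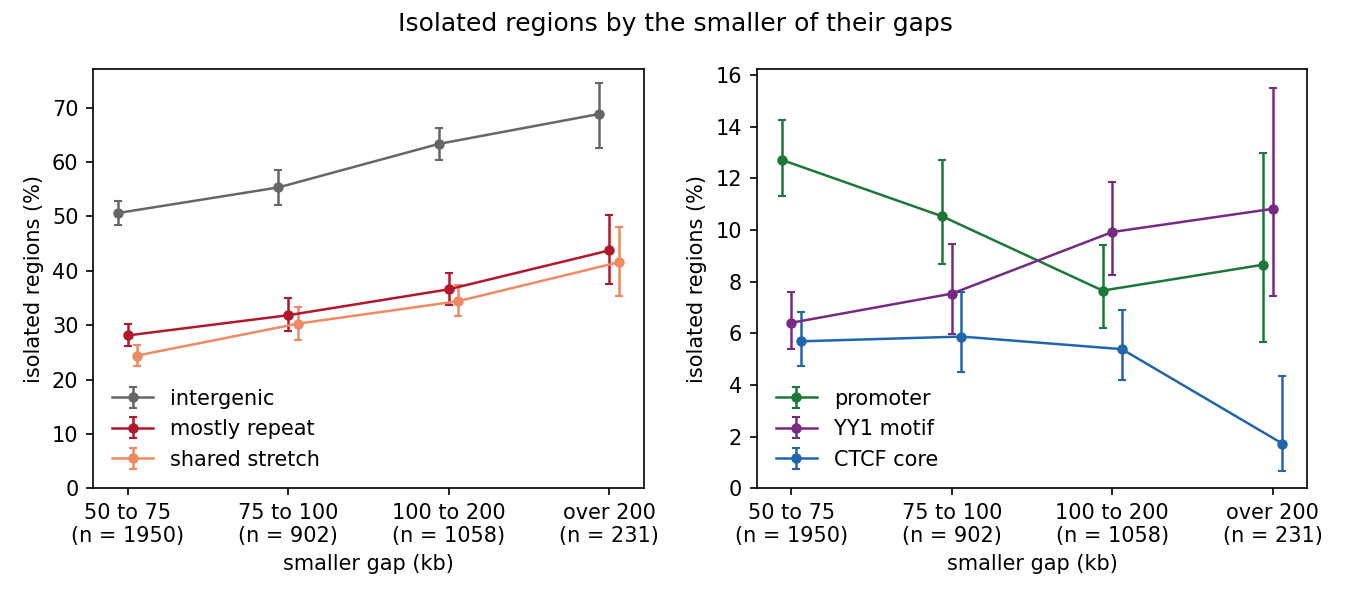
Share of isolated regions (%) that are intergenic, mostly repeat or hold a stretch common to 10 or more regions (left) and that are promoters or hold the YY1 motif or the CTCF core (right), by the smaller gap (kb), with 95% Wilson intervals. The 3 shares on the left rise with the gap, from 24.4 to 41.6% for the shared stretch.

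The chromosomes differed in how many of their regions were isolated. The share ranged from 3.14% on chromosome 6 to 8.36% on chromosome 14 (7.44 to 9.39%), with a median of 4.89%. Per Mb of chromosome there were 1.38 to 2.13 members. The intergenic share of members ranged from 42.9 to 65.7% and the share made mostly of repeats from 22.6 to 38.7% over the 19 autosomes.

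Intronic members lay in long genes. Of 1206 intronic members, 974 were in a protein-coding gene. Counted per region, the median host gene length was 388 kb (361 to 421), against 108 kb (106 to 110) for other intronic regions. Of these 974 members, 40.1% had a host gene over 500 kb long, against 11.1% of other intronic regions with a protein-coding host. Intronic regions with a gap over 50 kb on a single side had a median of 198 kb (189 to 206) and a share of 20.3%. With such a gap on neither side these values were 93.2 kb and 8.82%. The rule leaves out intronic regions within 50 kb of an accessible host promoter, so these lengths follow in part from the choice. Lrrc4c, which encodes a synaptic ligand of netrin-G, had 7 isolated regions among its 11 intronic regions. The contactin gene Cntn4 had 6 of 20, Dpyd of pyrimidine breakdown 6 of 10 and Lsamp, a cell adhesion gene of neurons, 6 of 22.

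By the closest start site, the members spread over 3552 genes, and 3068 of these were closest to 1 member alone. The genes with the most were Cntn4, Nckap5 and the splicing regulator gene Rbfox1 with 6 each, of 21, 8 and 20 regions closest to them in the list. The glycogen branching enzyme gene Gbe1 and the pseudogene Gm11923 had 5 each and no other region, and Gm25665 and Gm35216 had 5 each too. The closest gene was protein-coding for 31.4% of members, against 62.0% of the others, and a processed pseudogene for 27.7% against 10.7%. In regions with 1 side over 50 kb these shares were 50.7 and 16.6%. Members near another accessible promoter are left out by the rule, so these shares follow in part from the choice.

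Genes of neural cell adhesion were common as the closest protein-coding genes. A list of 139 of them (protocadherins, cadherins, contactins and the like) held the closest protein-coding gene of 394 members (9.51%, 8.66 to 10.4%), against 2.29% of the others, higher on 18 of 19 autosomes. In regions with 1 side over 50 kb the share was 5.12% and with neither 1.53%. The members were intergenic in 247 of these cases, in introns in 124 and in promoters in 17. Flrt2, whose product guides axons and cell contacts, and the protocadherin gene Pcdh7 had 13 members each, of 31 and 25 regions closest to them, and Pcdh20 and Pcdh9 had 12 each, of 28 and 54. By the closest gene of any kind the list held 77 members (1.86% against 0.905%). Ion channel and neurotransmitter receptor genes were the closest protein-coding genes of 131 members (3.16% against 1.46%, and 2.43% with 1 side over 50 kb), with the kainate receptor gene Grik2 at 9. By the closest gene of any kind they were 39 (0.942% against 0.867%), and the interval of the difference included 0 (-0.186 to 0.424). These lists hold many long genes, and the part of gene length in the result was not tested.

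Chemosensory receptor genes, which stand in large clusters and act in sensory cells of the nose and tongue, were the closest genes of 95 members (2.29%, 1.88 to 2.80%), against 0.485% of the others, with 1.16% of regions with 1 side over 50 kb and 0.301% with neither. Of these, 73 were olfactory receptor genes, 7 Vmn1r genes, 13 Vmn2r genes and 2 taste or trace amine receptor genes. Of the 95 members 66 were mostly repeat and 1 was a promoter. Zinc finger genes with the symbol Zfp were the closest genes of 13 members (0.314% against 1.17%), 8 of them promoters, and ribosomal protein genes of 4 (0.097% against 0.228%, interval of the difference -0.201 to 0.024 points). In regions with 1 side over 50 kb these shares were 0.607 and 0.069%. By the closest protein-coding gene the Zfp list had 59 members (1.42% against 2.17%, and 1.40% with 1 side over 50 kb) and the ribosomal list 14 (0.338% against 0.398%).

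By the closest gene of any kind, genes of the pluripotent state and of early lineages were rarely closest to isolated regions. For the pluripotency list this was also so in regions with a gap over 50 kb on 1 side. An accessible promoter within 50 kb of a member, other than its own, is left out by the rule, so the counts here follow in part from the choice. Of the 24 pluripotency genes listed, 1 was the closest gene of a member: Esrrb, a nuclear receptor of naive ES cells, at chr12:86558956-86559117, 54.6 kb from a start site, with 56.8% masked bases and a match to the NRF1 motif. In the other autosomal regions 125 (0.166%) had a gene of this list as the closest, but of those with 1 side over 50 kb only 4 (0.025%). Of the neuroectoderm list, Sox11 alone was the closest gene of a member (chr12:27410560-27410846, 68.1 kb from a start site), against 124 of the other regions, 19 of them (0.119%) with 1 side over 50 kb. No member (0 of 4141, upper limit 0.093%) had a mesendoderm gene as the closest, against 84 (0.112%) of the others and 12 (0.075%) of those with 1 side over 50 kb. For the neuroectoderm list the intervals with 1 side and with neither overlapped (0.076 to 0.186% and 0.147 to 0.215%). The same was true of the mesendoderm list (0.043 to 0.131% and 0.097 to 0.153%). By the closest protein-coding gene there were 13 members (0.314% against 0.364%) for the pluripotency list and 22 (0.531% against 0.373%) for the neuroectoderm list. For the mesendoderm list there were 7 (0.169% against 0.286%). The intervals of these differences included 0 (-0.188 to 0.177, -0.028 to 0.433 and -0.213 to 0.066 points, in that order).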

How the data were processed

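ATAC-seq was measured in 12 libraries, and the 4 ChIP-seq samples were not analysed. The authors aligned reads to mm10 with STAR (2.5.3a), kept unique reads on chromosomes 1 to 19, X and Y without Picard duplicates, found peaks in each library with MACS2 (2.1.1.20160309) on fragments, merged them with BEDOPS and dropped any that met a peak of a ChIP input. They name no shift for Tn5. The deposited list has 3 columns, chromosome, start and end, whose unit is other (positions in bp), and the depth behind each region is unknown.

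Regions were read with Python 3.11.15, numpy 2.4.6 and pandas 2.3.3, placed on GENCODE M21 by their centre and on the GRCm38 sequence, with lower-case bases as repeats, and plotted with matplotlib 3.10.9. Flanks have the width of the region, lie 5 kb away and contain no region and no N. Shares have Wilson, differences Newcombe and medians order-statistic intervals, without tests. The steps were tested on simulated data.

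The members and lists were chosen with earlier results of these data known. Named genes are the closest genes of the 8 members with the largest smaller gap, the 8 such protein-coding promoters, the 4 widest members, the 4 with a CTCF core and the 3 with an octamer with the largest smaller gap, the 5 genes closest to most members with ties, and genes of the pluripotency, neuroectoderm and mesendoderm lists. Genes of other lists, host genes, runs, shared stretches, the weight given to YY1 and the splits by repeats were chosen after values were seen. Some members and genes that this rule names are not reported here. Alternatives were other gaps, joined or wider regions, other promoters, genes, CpG limits, windows and flanks.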

Additional observations from a re-analysis of the deposited data

How the results depend on the processing

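With a gap over 25 kb in place of 50 kb, the number of isolated regions was 10040, with 14.2% promoters, 47.5% intergenic, 14.3% CpG-rich, 6.44% with the CTCF core and a median width of 358 bp. With a gap over 100 kb it was 1289, with 7.84, 64.3, 8.69 and 4.73% and 332 bp. Joining regions at most 500 bp apart first gave 12.3% promoters, 13.9% CpG-rich and 364 bp. Dropping regions narrower than 200 bp first gave 14.1% promoters, 52.5% intergenic, 15.7% CpG-rich and 422 bp. Promoters reaching 5 kb to both sides of a start site made up 22.7%, and with protein-coding genes only promoters were 8.38% and intergenic regions 64.8%. CpG limits of 55% and 0.65 gave 8.40%. The central 200 bp held the CTCF core in 4.18%. Without members made mostly of repeats, an alternative chosen after seeing the data, the shares were 15.3% promoters, 46.9% intergenic, 13.4% CpG-rich and 7.91% with the CTCF core. The cause of these changes was not tested. Of 91 values under alternatives, 67 moved beyond the interval or by more than 1.5 times and 24 did not.

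The difference from the other autosomal regions kept its sign at 25, 50 and 100 kb for promoters, intergenic, intronic, exonic, CpG-rich and mostly repeat regions and for the SOX, YY1 and octamer motifs (for the octamer at 100 kb with an interval that included 0, -0.016 to 2.02 points), and changed sign at 25 kb for the CTCF core. No paired analysis was possible because the list holds no value per library. A region may come from any number of the 12 libraries, and a missing neighbour means only that none was listed at the depth of these libraries, from unique reads and after peaks that met an input peak were dropped. Counts of stretches depend on the assembly and on soft-masking.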
